A study of Mus musculus with 6 samples.

Results

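A group of 9 genes of pyruvate oxidation and the citrate cycle was examined in cultured mouse CD8+ T cells: Pdha1, Pdhb, Dlat, Cs, Aco1, Suclg1, Suclg2, Sucla2 and Fh1. They were taken by symbol from the count table, which held all 9 among 11922 genes, and all 9 passed the filter on low counts, as did 11759 genes in all. CD8+ T cells were isolated with anti-CD8α magnetic beads from spleens of 3 C57BL6/J mice, whose age and sex the labels do not give. Every mouse contributed 1 vehicle and 1 AOA culture, and cultures were assigned to a mouse by the number in their titles. Cells were activated with beads carrying antibodies to CD3 and CD28 and grown in RPMI medium with recombinant human interleukin-2 at 100 units per ml, which both groups received. The vehicle group (3 libraries) received water and the AOA group (3 libraries) received 0.25 mM aminooxyacetic acid, an inhibitor of enzymes that use pyridoxal 5'-phosphate, the active form of vitamin B6. After 72 hours the cells were washed and kept in interleukin-2 with the same agent until day 7, when RNA was taken. The cultures were sequenced in bulk, so that a change in RNA per cell and a change in the mixture of cells cannot be told apart.

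The pyruvate dehydrogenase complex converts pyruvate, the end product of glycolysis, to acetyl-CoA inside mitochondria. Citrate synthase joins acetyl-CoA to oxaloacetate, and the citrate cycle then oxidises the citrate in steps that reduce NAD+ and FAD for the respiratory chain and release precursors for lipids and amino acids. Activated T cells draw on the cycle for both purposes. None of the 9 enzymes uses vitamin B6, but aspartate and alanine aminotransferases, which do, exchange oxaloacetate, 2-oxoglutarate and pyruvate with amino acids.

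Transcripts of 6 of the 9 genes rose with AOA and those of the other 3 were not called. The largest rises were those of Fh1 (fumarase), at 2.36-fold, and Suclg2, the GTP-forming β subunit of succinyl-CoA synthetase, at 1.92-fold. Sucla2, Pdha1, Cs and Pdhb rose 1.47-, 1.46-, 1.36- and 1.33-fold. The comparison used edgeR's quasi-likelihood test over all 11759 genes, and a gene with a Benjamini-Hochberg adjusted p under 0.05 was called. In this comparison 53.0% of all tested genes were called, 26.2% as higher and 26.8% as lower with AOA, against which the 6 higher of 9 are to be read. By edgeR, DESeq2 and limma alike 0 of the 9 were called lower, and 0 had an unadjusted p under 0.05 in that direction. The median log2 fold change of the 9 genes was 0.44, with a range from -0.19 to 1.24, beside -0.02 for all tested genes. Summed, the 9 genes made up 0.0716% to 0.0844% of counts in vehicle libraries and 0.106% to 0.111% in AOA libraries.

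Total counts lay between 12881962 and 18934869 in vehicle libraries and between 18696114 and 21997078 in AOA libraries, and each of the 9 genes had at least 336 counts in every library. A library stood apart in each group. The chi-square per gene between vehicle replicate 2 and vehicle replicates 1 and 3 was 55.1 and 59.7, far above that between the latter. Likewise, AOA replicates 2 and 3 differed by 10.5 per gene and AOA replicate 1 differed from them by 71.1 and 64.6. The difference of AOA replicate 1 ran along gene length. In genes of 1000 to 1500 bases its log2 CPM (CPM, the count scaled by the TMM-normalised library size) exceeded the mean of AOA replicates 2 and 3 by a median of 0.32, and in genes of 4000 to 5000 bases it differed by a median of -0.15. Differences among the 9 genes ran the same way. Suclg1 (1392 bases in the deposited table), Pdhb (1485 bases) and Fh1 (1632 bases) were higher in AOA replicate 1 by 0.40, 0.12 and 0.43, whereas Dlat (4035 bases) and Aco1 (4319 bases) differed by -0.35 and -0.54. Values without AOA replicate 1, or from a fit with the length trend of each library removed, stand beside several results.

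**Figure D1:**
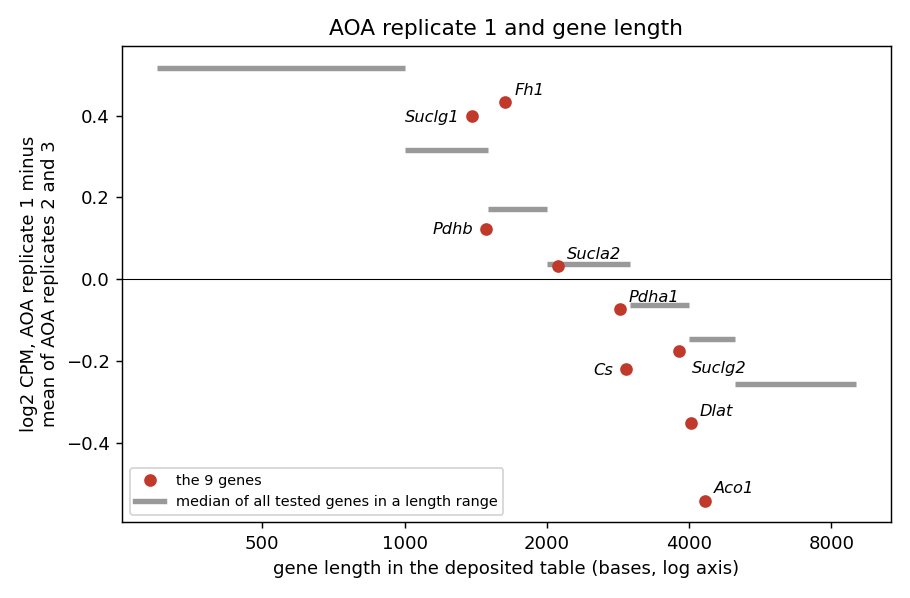
The difference in log2 CPM between AOA replicate 1 and the mean of AOA replicates 2 and 3 (y axis) against gene length in bases (x axis, log scale), with points for the 9 genes and bars for the median of all tested genes in each length range. Points run from 0.43 for Fh1 down to -0.54 for Aco1, and the medians run from 0.52 under 1000 bases to -0.26 from 5000 bases.

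Markers of other cell types were examined in the same libraries. The 6 CD8 T cell markers summed to between 3304 and 4213 CPM with vehicle and between 4251 and 4984 CPM with AOA, with Cd8a and Cd8b1 higher and Cd2 lower. Of 4 CD4 T cell markers 3 (Cd4, Zbtb7b and Cd40lg) were lower, where 26.8% of all tested genes were. That list summed to between 158 and 210 CPM with vehicle and between 33.0 and 54.3 CPM with AOA. The myeloid list, of which 3 of 5 genes were found, summed to between 40.8 and 54.2 CPM with vehicle and between 0.873 and 3.33 CPM with AOA, mostly Itgam (means of 45.4 and 1.21 CPM). Of 4 B cell genes found of 5, Cd79b was higher, and they summed to between 12.6 and 16.6 CPM with vehicle and between 22.6 and 30.7 CPM with AOA. The 3 NK cell genes summed to between 145 and 308 CPM with vehicle and between 128 and 213 CPM with AOA, with Klrb1c lower. None of the markers found was at 0 in every library, and the 3 erythroid genes were not analysed here. The part of these differences in the results below was not tested.

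**Figure D2:**
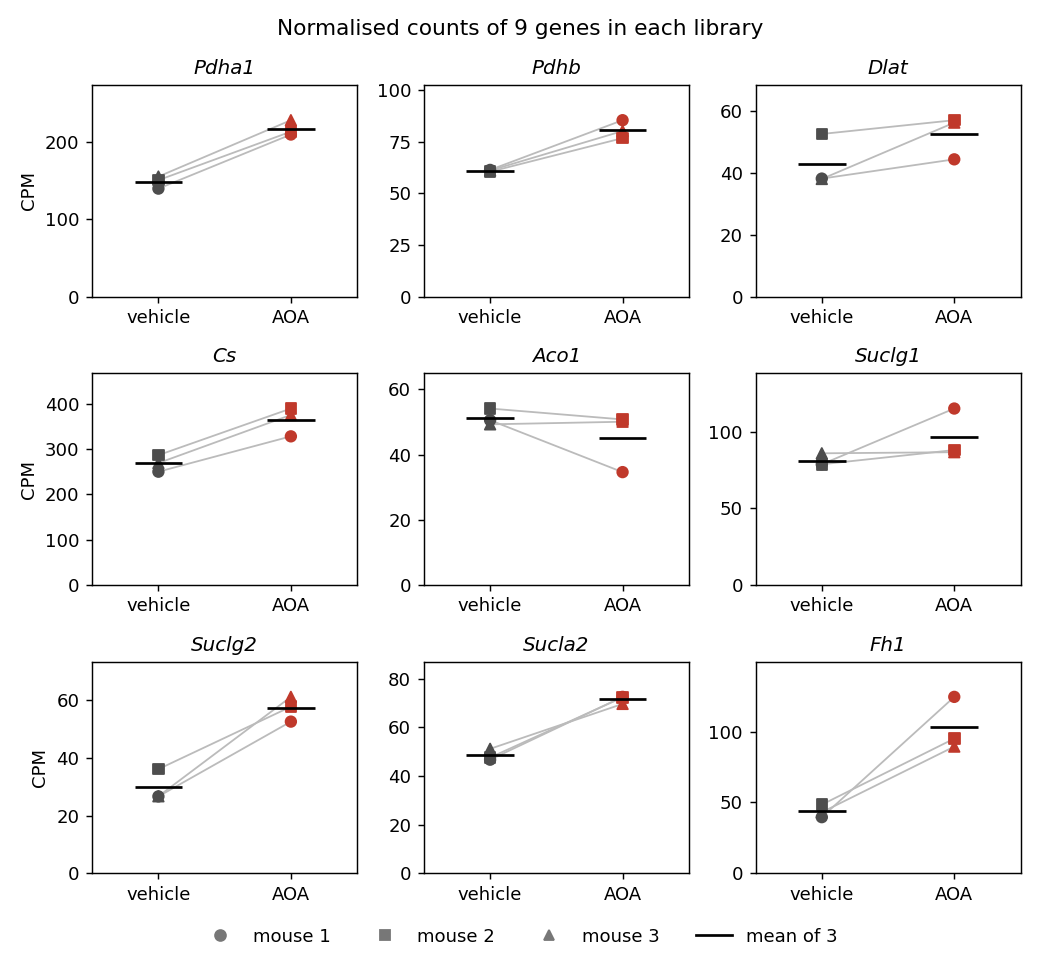
CPM (y axis, from 0) of each of the 9 genes in vehicle and AOA cultures, with a symbol for each mouse, lines joining the cultures of the same mouse and bars for the mean of 3. The groups do not overlap for 7 genes, and they overlap for Dlat and Aco1.

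The sequences before the transcription start are shown for 4 of the 9 genes, the called genes Fh1, Suclg2 and Cs and the uncalled Dlat, to set genes that rose beside one that was not called. Each run holds the 250 bases before the start given by RefSeq (GRCm38.p6), 5′ to 3′ on the strand of the gene, and capitals mark CCAAT on either strand, a sequence that the factor NF-Y binds. They lie at chr1:175625636-175625885 (minus strand, Fh1), chr6:95718847-95719096 (minus strand, Suclg2), chr10:128337477-128337726 (plus strand, Cs) and chr9:50659781-50660030 (minus strand, Dlat). For Suclg2 and Pdhb the start of this sequence table differs from the 5′ end of the gene span given here. The window of Suclg2 overlaps the end of that span by a few bases, and the bases after its start were not found in a GENCODE transcript. The window of Pdhb lies wholly inside the span of the gene.
Fh1: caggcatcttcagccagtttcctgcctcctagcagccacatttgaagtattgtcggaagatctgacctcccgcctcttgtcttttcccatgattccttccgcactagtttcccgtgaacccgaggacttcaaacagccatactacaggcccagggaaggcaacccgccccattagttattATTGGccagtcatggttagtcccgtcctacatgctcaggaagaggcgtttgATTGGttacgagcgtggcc
Suclg2: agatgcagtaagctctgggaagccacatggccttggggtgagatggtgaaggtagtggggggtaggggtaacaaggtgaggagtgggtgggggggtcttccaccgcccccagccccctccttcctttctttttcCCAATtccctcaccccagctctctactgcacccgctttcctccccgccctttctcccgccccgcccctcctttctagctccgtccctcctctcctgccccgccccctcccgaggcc
Cs: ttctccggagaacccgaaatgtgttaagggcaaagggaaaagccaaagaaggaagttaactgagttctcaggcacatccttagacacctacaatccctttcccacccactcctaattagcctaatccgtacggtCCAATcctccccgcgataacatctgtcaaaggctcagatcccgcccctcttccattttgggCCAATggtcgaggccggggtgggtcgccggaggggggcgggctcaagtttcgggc
Dlat: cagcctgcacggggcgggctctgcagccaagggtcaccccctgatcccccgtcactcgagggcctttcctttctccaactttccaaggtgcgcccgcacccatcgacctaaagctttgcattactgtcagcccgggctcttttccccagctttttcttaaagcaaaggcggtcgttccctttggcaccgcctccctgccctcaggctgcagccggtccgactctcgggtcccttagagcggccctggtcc
CCAAT was found 2 times in the window of Fh1, 1 time in that of Suclg2, 2 times in that of Cs and 3 times in that of Pdhb. It was found 0 times for Pdha1 and Sucla2, which were called higher, and 0 times for the uncalled Dlat, Aco1 and Suclg1, so that called genes were found with and without it. All 9 genes had a RefSeq entry, and 4 of the 9 held CCAAT in their window, as did 35.3% of 11991 windows of tested genes. GGGCGG, the GC box, was found in 7 of 9 (57.5% of windows). No GC box overlapped a CCAAT, though a pair of GC boxes before Suclg2 overlapped each other. The ETS core CCGGAAG was found in 0 of 9 (14.2% of windows). Likewise the E-box CACGTG was in 0 of 9 (8.3% of windows), as was the NRF1 palindrome (1.7% of windows). Both strands were searched, the motifs were chosen after the sequences had been seen, and a match describes letters in the window and no binding.

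The first enzyme of the pyruvate dehydrogenase complex, E1, is built from an α subunit, encoded in most tissues by Pdha1, and a β subunit, encoded by Pdhb. Pdha1 (Entrez gene 18597) lies on chromosome X of GRCm38.p6 from 160122219 to 160138430, on the minus strand. Its level was 140, 151 and 156 CPM in vehicle replicates 1, 2 and 3 and 210, 214 and 229 CPM in AOA replicates 1, 2 and 3. Every AOA library was above every vehicle library, with means of 149 ± 8.04 CPM (SD, n = 3) and 218 ± 9.85 CPM (SD, n = 3). Pdha1 rose by 0.55 log2 (standard error, SE, 0.12 and edgeR adjusted p = 0.00521), and the rise within a mouse lay between 0.50 and 0.59. Pdha1 shares 603 exon bases in the GENCODE annotation with Map3k15, a gene on the opposite strand with 487 to 950 counts per library against 1765 to 4575 for Pdha1. The strand setting of the counting was not given in the labels or methods, so that reads from these bases may have been assigned to either gene. The log2 fold change of Map3k15 itself was 0.29 (adjusted p = 0.106 by edgeR).

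Pdhb (Entrez gene 68263) lies on chromosome 14 from 8165991 to 8173303, on the minus strand. Its level hardly varied among the 3 vehicle libraries, at 61.4, 60.5 and 61.1 CPM, and it was 85.6, 76.8 and 80.3 CPM in the AOA libraries. Again the groups did not overlap, the means being 61.0 ± 0.449 and 80.9 ± 4.38 CPM (SD, n = 3 each). Pdhb rose by 0.41 log2 (SE 0.12, edgeR adjusted p = 0.0162), and the value was 0.29 with length trends removed (adjusted p = 0.0378). The call was lost without vehicle replicate 3 (adjusted p = 0.0520) or AOA replicate 3 (adjusted p = 0.0534), although the log2 fold change was then 0.43 and 0.42.

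Dlat encodes E2, the dihydrolipoamide acetyltransferase core of the complex that passes the acetyl group to coenzyme A. The gene (Entrez gene 235339, chromosome 9 from 50634633 to 50659780, minus strand) had 38.2, 52.6 and 38.1 CPM in vehicle replicates 1, 2 and 3 and 44.4, 57.1 and 56.3 CPM in the AOA libraries. Vehicle replicate 2 was above AOA replicate 1, so that the groups overlapped, although the AOA culture was higher in each of the 3 mice. The edgeR test did not call Dlat, at 0.29 log2 (adjusted p = 0.184 by edgeR) and a 95% interval from -0.10 to 0.68, which includes the rises of Pdha1 and Pdhb. The call depended on vehicle replicate 2. Without that library the log2 fold change was 0.50 (adjusted p = 0.0209), and without AOA replicate 1 it was 0.40 (adjusted p = 0.0906).

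Within the complex, the ratio of counts per kilobase of Pdha1 to Pdhb was 1.19, 1.30 and 1.32 without AOA and 1.28, 1.45 and 1.48 with AOA. The ratio was higher with AOA in all 3 mice by 0.11 to 0.16 on the log2 scale, but the groups overlapped. An exact two-sided permutation test of the difference in means (0.14 log2) gave p = 0.3, or 0.4 after adjustment over the 4 ratios computed, of which 3 are given, and with 3 libraries per group that test cannot give less than 0.1. The ratio of Dlat to Pdhb was 0.229, 0.320 and 0.229 with vehicle and 0.191, 0.273 and 0.258 with AOA. It differed by -0.11 log2 between the groups (exact permutation p = 0.6), and the sign turned without vehicle replicate 2 (0.056) or AOA replicate 1 (0.053).

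**Figure D3:**
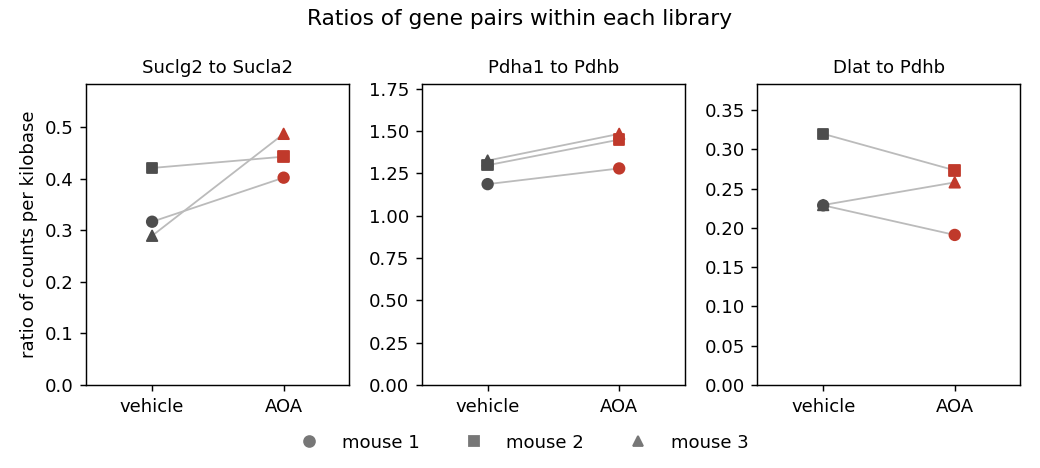
Ratios of counts per kilobase (y axis, from 0) of 3 gene pairs in each library, with a symbol for each mouse and lines joining the cultures of the same mouse. The groups overlap for all 3 pairs, and the ratio of Suclg2 to Sucla2 lies between 0.289 and 0.421 with vehicle and between 0.402 and 0.487 with AOA.

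Cs encodes citrate synthase, which catalyses the entry of acetyl-CoA into the cycle, and had the highest level per kilobase of the 9 genes. It lies on chromosome 10 from 128337727 to 128362482, on the plus strand (Entrez gene 12974). Its level was 250, 286 and 269 CPM in vehicle replicates 1, 2 and 3 and 328, 389 and 375 CPM in AOA replicates 1, 2 and 3. The groups did not overlap, and the means were 268 ± 18.3 CPM (SD, n = 3) and 364 ± 32.1 CPM (SD, n = 3). Cs rose by 0.44 log2 (SE 0.14, edgeR adjusted p = 0.0246), with a rise between 0.39 and 0.48 within a mouse. Its call was lost without vehicle replicate 1 (adjusted p = 0.0921), vehicle replicate 3 (0.0724), AOA replicate 2 (0.0893) or AOA replicate 3 (0.0857), while the log2 fold change with each library left out stayed between 0.39 and 0.52.

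Aco1 encodes cytosolic aconitase, which isomerises citrate outside mitochondria when it holds an iron-sulfur cluster and binds messenger RNAs of iron metabolism as IRP1 when it does not. Aco1 (Entrez gene 11428, chromosome 4 from 40143265 to 40199009, plus strand) was the single gene of the 9 with a negative estimate. Its level was 50.6, 54.1 and 49.3 CPM with vehicle and 34.6, 50.8 and 50.1 CPM with AOA, so that AOA replicates 2 and 3 lay within the vehicle range and AOA replicate 1 lay below it. The log2 fold change was -0.19 (adjusted p = 0.376 by edgeR), with a 95% interval from -0.56 to 0.19. Without AOA replicate 1 it was -0.02 (adjusted p = 0.859). Ireb2, which encodes the related iron regulatory protein IRP2, had a log2 fold change of -0.10 and was not called (adjusted p = 0.527 by edgeR).

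Succinyl-CoA synthetase makes succinate and GTP or ATP from succinyl-CoA. Its α subunit, encoded by Suclg1, pairs with a β subunit that sets the nucleotide, GTP for Suclg2 and ATP for Sucla2. Both β subunit genes rose with AOA. Suclg2 (Entrez gene 20917, chromosome 6 from 95473009 to 95718858, minus strand) had 26.7, 36.1 and 26.7 CPM in vehicle replicates 1, 2 and 3 and 52.6, 57.8 and 61.2 CPM in the AOA libraries. The groups were far apart, with means of 29.8 ± 5.46 CPM (SD, n = 3) and 57.2 ± 4.33 CPM (SD, n = 3). Suclg2 rose by 0.94 log2 (SE 0.16, edgeR adjusted p = 0.00117), and the value was 1.14 without vehicle replicate 2, the highest vehicle library.

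Sucla2 (Entrez gene 20916, chromosome 14 from 73552786 to 73596144, plus strand) had 46.7, 47.5 and 51.1 CPM with vehicle and 72.5, 72.3 and 69.6 CPM with AOA. Replicates were close in both groups, which did not overlap, with means of 48.5 ± 2.37 CPM (SD, n = 3) and 71.5 ± 1.62 CPM (SD, n = 3). Sucla2 rose by 0.56 log2 (SE 0.12, edgeR adjusted p = 0.00352). The calls of Suclg2 and Sucla2 held in all 14 alternatives, including each library left out.

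The ratio of Suclg2 to Sucla2 per kilobase was 0.316, 0.421 and 0.289 without AOA and 0.402, 0.443 and 0.487 with AOA. It was higher with AOA in each mouse, by between 0.07 and 0.75 on the log2 scale, but AOA replicate 1 lay below vehicle replicate 2. The difference of 0.39 log2 had an exact permutation p of 0.2 (0.4 after adjustment), in a design whose smallest p is 0.1. In every library the ratio stayed below 0.5, with fewer counts per kilobase for Suclg2.

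Suclg1 (Entrez gene 56451, chromosome 6 from 73248505 to 73276907, plus strand) had 78.8, 78.8 and 86.0 CPM without AOA and 115, 88.1 and 86.7 CPM with AOA. The groups did not overlap, but AOA replicates 2 and 3 lay just above vehicle replicate 3. The test did not call Suclg1, at 0.25 log2 (adjusted p = 0.175 by edgeR) and a 95% interval from -0.08 to 0.58. Much of the estimate came with AOA replicate 1, and without it the value was 0.11 (adjusted p = 0.372), as it was with length trends removed (0.11, adjusted p = 0.424).

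Fh1 encodes fumarase, which hydrates fumarate to malate in mitochondria and, in a second pool, in the cytosol. It lies on chromosome 1 from 175601378 to 175625635, on the minus strand (Entrez gene 14194). Its level was 39.6, 48.4 and 43.0 CPM in vehicle replicates 1, 2 and 3 and 125, 95.1 and 89.5 CPM in AOA replicates 1, 2 and 3. The lowest AOA library was well above the highest vehicle library, and the means were 43.7 ± 4.45 CPM (SD, n = 3) and 103 ± 18.9 CPM (SD, n = 3). Fh1 rose by 1.24 log2 (SE 0.16, edgeR adjusted p = 3.06e-04), with rises of 1.65, 0.97 and 1.05 in mice 1, 2 and 3. Without AOA replicate 1 it was 1.08, and with length trends removed 1.15. Fh1 was called in all 14 alternatives and was the single gene of the 9 with a log2 fold change of at least 1.

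The groups of 3 libraries did not overlap for 7 of the 9 genes, all higher with AOA, where 31.0% of all tested genes had every AOA library above every vehicle library. Those 7 were the 6 genes called and Suclg1.

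Levels of different genes were compared as CPM per kilobase of the deposited gene length. With vehicle the order was Cs (91.4 ± 6.23, SD, n = 3), Suclg1 (58.3 ± 2.98), Pdha1 (52.2 ± 2.82), Pdhb (41.1 ± 0.302), Fh1 (26.8 ± 2.73), Sucla2 (23.0 ± 1.12), Aco1 (11.9 ± 0.583), Dlat (10.6 ± 2.08) and Suclg2 (7.83 ± 1.43). The libraries of Aco1 overlapped with those of Dlat and those of Dlat with those of Suclg2, while the means of Fh1 and Sucla2 differed by little more than the SD of Fh1. Cs stood at the 93.8th percentile of all tested genes and Suclg2 at the 42.1st. With AOA, Cs remained highest (124 ± 10.9), and Pdha1 (76.3 ± 3.45), Suclg1 (69.5 ± 11.6), Fh1 (63.2 ± 11.6) and Pdhb (54.5 ± 2.95) formed a run in which neighbours overlapped. Sucla2 stood apart below them (33.9 ± 0.767). Suclg2 (15.0 ± 1.14), Dlat (13.03 ± 1.76) and Aco1 (10.5 ± 2.12) came last, each overlapping the next. Fh1 moved from the 75.4th to the 89.0th percentile and Suclg2 from the 42.1st to the 58.6th, whereas Aco1 went from the 53.2nd to the 49.6th. Suclg1 and Fh1, whose SD with AOA was 11.6, were both highest in AOA replicate 1.

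A list of 12 other genes of the complex and the cycle had a median log2 fold change of 0.53. Of them 9 were higher, 1 was lower and 2 were not called, beside 26.2% higher and 26.8% lower among all tested genes. Idh3a, the catalytic subunit of NAD-dependent isocitrate dehydrogenase, rose from 49.2 ± 12.9 to 150 ± 17.1 CPM (SD, n = 3), a log2 fold change of 1.60 (adjusted p = 1.94e-04 by edgeR). Pdhx, which anchors the E3 subunit to the pyruvate dehydrogenase core, rose from 9.27 ± 0.720 to 21.7 ± 2.25 CPM (SD, n = 3; log2 fold change 1.23, adjusted p = 3.73e-04). Sdhb, the iron-sulfur subunit of succinate dehydrogenase, rose from 93.7 ± 4.22 to 194 ± 22.7 CPM (SD, n = 3; log2 fold change 1.05, adjusted p = 2.78e-04). The exception was Idh3b, another subunit of the same isocitrate dehydrogenase, which fell from 213 ± 22.2 to 160 ± 15.0 CPM (SD, n = 3; log2 fold change -0.41, adjusted p = 0.0352). That call was lost without vehicle replicate 1 (adjusted p = 0.133), vehicle replicate 3 (0.154), AOA replicate 2 (0.135) or AOA replicate 3 (0.116), with log2 fold changes of -0.35, -0.33, -0.35 and -0.39. Sdha and Ogdh, which were not called, were called higher without AOA replicate 1 (log2 fold change from 0.34 to 0.53 and from 0.21 to 0.39, adjusted p = 0.00524 and 0.0235), and the number higher was then 11 of 12. Over all left-out libraries that number ran from 7 (without vehicle replicate 1) to 11, and it was 8 with the mouse as a block or with length trends removed. With length trends removed Idh3g lost its call (log2 fold change from 0.36 to 0.22, adjusted p = 0.180) and Sdhb stood at 0.86, and without AOA replicate 1 Sdhd went from 0.58 to 0.35. The call of Idh3g was also lost without vehicle replicate 1 (adjusted p = 0.121), AOA replicate 2 (0.0956) or AOA replicate 3 (0.102), and that of Sdhd without vehicle replicate 1 (0.0691) or vehicle replicate 3 (0.0550).

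**Figure D4:**
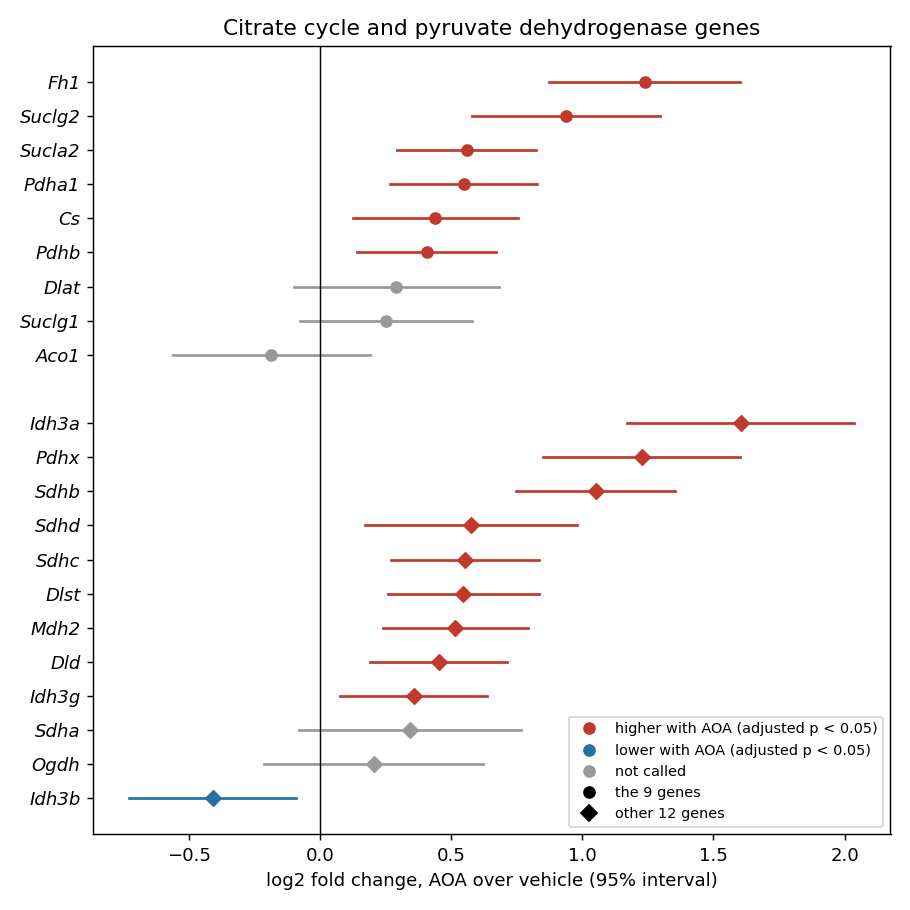
Log2 fold change of AOA over vehicle with its 95% interval (x axis) for the 9 genes (circles) and 12 other genes of the complex and the cycle (diamonds), coloured by the edgeR call. In the first group 6 genes lie to the right of 0 and 3 intervals cross it, and in the second 9 lie to the right, 2 cross it and Idh3b lies to the left.

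Pyruvate dehydrogenase is switched off by kinases (Pdk genes) that phosphorylate Pdha1 protein and switched on by phosphatases (Pdp genes). Of 6 kinase, phosphatase and regulator genes tested, 2 rose and 1 fell, a share near the 53.0% called among all tested genes, and the list median was 0.07 log2. The kinase genes differed from each other in direction. Pdk2 fell from 9.87 ± 1.24 to 2.84 ± 1.00 CPM (SD, n = 3; log2 fold change -1.79, adjusted p = 8.25e-04 by edgeR), whereas Pdk3 rose from 24.0 ± 4.76 to 52.5 ± 1.85 CPM (SD, n = 3; log2 fold change 1.13, adjusted p = 5.29e-04). Pdk1 stood at 250 ± 102 CPM in vehicle cultures and 234 ± 32.8 CPM in AOA cultures (SD, n = 3 each), and was not called (log2 fold change -0.10, 95% interval from -0.74 to 0.54). The phosphatase Pdp1 rose by 0.81 log2 (adjusted p = 0.0150 by edgeR), a call that was lost without vehicle replicate 1 (adjusted p = 0.0509), vehicle replicate 3 (0.0517) or AOA replicate 1 (0.0506), at 0.77, 0.74 and 0.62 log2.

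Of 5 genes of pyruvate entry and citrate exit, 4 rose with AOA (26.2% of all tested genes did), and the list median was 1.08 log2. The mitochondrial pyruvate carrier genes Mpc1 and Mpc2 rose by 1.16 and 1.10 log2 (adjusted p = 0.00117 and 0.00337), and these are genes of 907 and 854 bases. Without AOA replicate 1 the values were 0.94 and 0.80, and with length trends removed 0.94 and 0.86. Pcx, which encodes the pyruvate carboxylase that makes oxaloacetate from pyruvate, rose by 1.08 log2 (adjusted p = 0.0246), and its call was lost without vehicle replicate 1, vehicle replicate 3 or AOA replicate 2 (adjusted p = 0.0791, 0.0760 and 0.0898). Its log2 fold change was 0.66 without AOA replicate 2 and 1.49 without vehicle replicate 2. Acly, the cytosolic enzyme that cleaves exported citrate, rose by 0.66 log2 (adjusted p = 0.00615) and the citrate carrier gene Slc25a1 was not called. Of 3 genes for making or attaching lipoic acid, the cofactor on Dlat protein, Lipt2 was called higher (log2 fold change 3.77, adjusted p = 3.24e-04), from 0.147 ± 0.0933 to 2.12 ± 0.576 CPM (SD, n = 3). Its vehicle libraries held only 1, 4 and 2 counts, so that its counting error is large, and without vehicle replicate 2 the value was 4.40. Lipt2 passed the low-count filter only through its AOA libraries, which held 60, 31 and 39 counts, so that its p is not independent of that filter. With a filter of at least 10 CPM in 3 libraries, 0 genes of this list were called higher. Lias and Lipt1 were not called. Pdk4 and the paralogs Pdha2 and Csl were not analysed here.

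**Figure D5:**
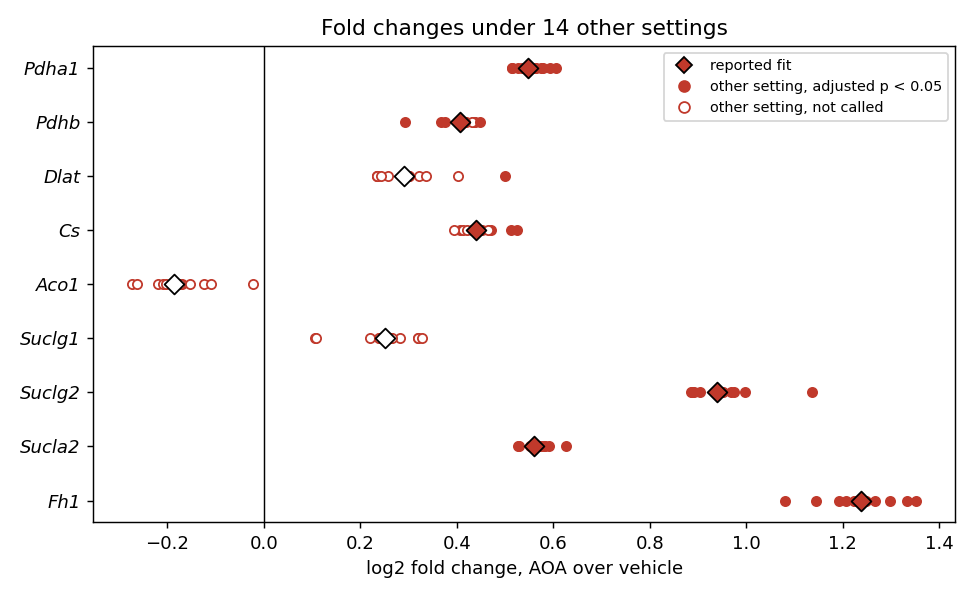
Log2 fold change of AOA over vehicle (x axis) of each of the 9 genes in the reported edgeR fit (diamonds) and in 14 alternatives (circles, filled where the adjusted p is under 0.05). All circles of Pdha1, Suclg2, Sucla2 and Fh1 are filled, 12 of Pdhb, 10 of Cs and 1 of Dlat are, and those of Aco1 lie between -0.27 and -0.02.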

How the data were processed

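RNA of CD8+ T cells was measured by sequencing in 3 vehicle and 3 AOA cultures. The authors prepared stranded mRNA libraries, sequenced paired-end reads, aligned them by STAR with default options, and deposited the raw count of uniquely aligned reads for each gene with its length in bases. The submitters' processing notes also name bcl2fastq, featureCounts, DESeq2 and the build mm10. Annotation and counting options: not given in the sources used here. Analysis was in R 4.3.3, by edgeR 4.0.16 (filterByExpr with its minimum count of 10, TMM, robust quasi-likelihood test, Benjamini-Hochberg adjustment over all tested genes), with DESeq2 1.42.0 and limma 3.58.1 as alternatives. CPM used TMM library sizes and log2 CPM a prior count of 2. Standard errors are the log2 fold change divided by the root of the F statistic. Ratios had 0.5 added to each count. The steps were tested on simulated data that held no mouse effect, no length trend and no library that stood apart. The simulation therefore does not show how the fits handle those features. The members and the lists were chosen with earlier results of these data known. Named were the 9 genes, up to 3 called genes per direction of each list, and called markers above 5 CPM. An item of the lists and the ratio that needs it are not reported here. Other genes named beyond these (Pdk1, Ireb2, Slc25a1, Sdha, Sdhd, Ogdh, Idh3g, Pdpr, Lias, Lipt1, Acly and Map3k15) were chosen after their values were seen. Removal of length trends and the motif search were added after the data were seen. Both groups came from the same 3 mice per the labels. Vehicle and AOA libraries with the same number in their titles were taken to be from the same mouse, which is an inference. The deviations of cultures matched in this way from their group means correlated positively (r of 0.0868, 0.189 and 0.194, over genes, which are not independent). Cultures with unlike numbers were not compared. The fit without the mouse was the one reported. The 9 genes had at least 336 counts in every library, so that their precision rests mainly on the spread between 3 cultures.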

Additional observations from a re-analysis of the deposited data

How the results depend on the processing

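Among the 9 genes, 0 changed sign in any of the 14 alternatives, and the number called higher was 6 under either other scaling, either other filter, DESeq2, limma, the mouse as a replicate block and length trends removed. Leaving out each library in turn gave 4 to 7, and a minimum size of 1 log2 gave 1. The median log2 fold change of the 9 genes was 0.52 without vehicle replicate 2 and 0.51 without AOA replicate 1, in a range of 0.42 to 0.52 over the left-out libraries (the cause was not tested). That minimum left 1418 higher and 1663 lower genes in all, and 3 higher and 0 lower among the 12 other citrate cycle genes, where the number lower was 0 to 1 over the left-out libraries. The difference in the ratio of Dlat to Pdhb turned from -0.11 to 0.056 without vehicle replicate 2 and to 0.053 without AOA replicate 1, in a range from -0.205 to 0.056. Among uncalled genes, the sign of Pdk1 turned with length trends removed (0.030) and without vehicle replicate 1 (0.0063), vehicle replicate 3 (0.21) or AOA replicate 2 (0.011), in a range from -0.355 to 0.21, that of Pdpr without AOA replicate 1 (0.011, in a range from -0.191 to 0.011) and that of Ireb2 with length trends removed (0.0415). With the mouse as a replicate block, the call of Idh3g was lost (log2 fold change 0.36, adjusted p = 0.0596) and no other call among the 9 genes and the pathway lists changed (markers and Map3k15 were not compared), while of all genes 6292 were called, 6007 of them also without it. Paired by mouse, where the mean difference equals the unpaired one by arithmetic, the exact permutation p of the ratios was 0.25 for Suclg2 to Sucla2 and Pdha1 to Pdhb, the smallest that 3 pairs allow, and 0.5 for Dlat to Pdhb.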
